A study of Mus musculus with 11 samples.

Results

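The genes described here are 36 mouse genes of central carbon metabolism, chosen by name from glycolysis, lactate and pyruvate handling, the tricarboxylic acid (TCA) cycle and the pentose phosphate pathway. Each of the 36 symbols matched 1 row of a table of 37991 genes, and all 36 passed the filter on low values, so no member drops out of a count below. The table holds RNA abundance in 11 libraries of cultured primary cells from C57BL/6J mouse frontal cortex, taken from embryos at E14.5 and expanded as neural stem cells. The NSC group (3 libraries) was collected at day 0, in the proliferation medium. The Astrocyte group (3 libraries) had spent 4 days in DMEM with 1% N-2 supplement, 2 mM GlutaMAX and 1% fetal bovine serum. The Neuron group (3 libraries) had spent 4 days in Neurobasal medium with 2% B-27 and 2 mM GlutaMAX, and the Oligodendrocyte group (2 libraries) had the Neuron medium plus the thyroid hormone T3 at 30 ng/mL. The group names therefore stand for the medium a culture received, and the base medium, the supplements and serum differ together between Astrocyte and the other day 4 groups. NSC was collected at day 0 only and the other groups at day 4 only. In every comparison with NSC, time in culture, leaving the proliferation medium and the new medium therefore cannot be told apart. The labels call the libraries biological replicates and do not say whether they came from separate litters.

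Glycolysis splits glucose into pyruvate in the cytosol. Lactate dehydrogenase turns pyruvate into lactate and back, while the pyruvate dehydrogenase complex feeds it as acetyl-CoA into the TCA cycle of the mitochondria, where it is oxidised. The pentose phosphate pathway branches off at glucose-6-phosphate and makes NADPH, which lipid synthesis and glutathione reduction use, and ribose phosphate for nucleotides. Several steps have isoenzymes encoded by separate genes: Hk2, Ldha and Eno1 are typical of proliferating cells, whereas Hk1, Ldhb, Aldoc and Eno2 are typical of adult brain, with Aldoc an astrocyte marker and Eno2 a neuron marker. Pyruvate dehydrogenase is switched off by 4 kinases (Pdk1 to Pdk4) and switched on by phosphatases.

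Several of these genes are textbook targets of transcription factors that read short DNA words, so the promoters of 5 members are shown before their values. They are Hk2 and Ldha, which fell in all 3 media, Ldhb, which rose in all 3, Pgk1, which fell most in the Neuron medium, and G6pdx, which was highest in the Oligodendrocyte medium. Each is the 250 bases before the outermost RefSeq start of the gene on build GRCm38.p6, written 5′ to 3′ on the gene's strand. Capitals mark ACGTG or its reverse complement (the core bound by hypoxia-inducible factors) in Hk2, Ldha, Ldhb and Pgk1, and TGACNNNGC or its reverse complement (the antioxidant response core bound by Nrf2) in G6pdx.
Hk2, chr6:82774455-82774704, minus strand: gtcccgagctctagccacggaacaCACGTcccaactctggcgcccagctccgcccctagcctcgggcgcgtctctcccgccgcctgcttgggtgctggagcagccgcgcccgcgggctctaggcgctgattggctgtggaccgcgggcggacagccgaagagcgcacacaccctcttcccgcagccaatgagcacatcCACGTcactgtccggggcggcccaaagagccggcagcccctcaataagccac
Ldha, chr7:46845554-46845803, plus strand: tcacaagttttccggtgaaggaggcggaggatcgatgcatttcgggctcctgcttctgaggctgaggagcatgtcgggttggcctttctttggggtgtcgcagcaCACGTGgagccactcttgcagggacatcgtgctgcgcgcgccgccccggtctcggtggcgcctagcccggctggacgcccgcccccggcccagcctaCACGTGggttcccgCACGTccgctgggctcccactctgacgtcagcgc
Ldhb, chr6:142507958-142508207, minus strand: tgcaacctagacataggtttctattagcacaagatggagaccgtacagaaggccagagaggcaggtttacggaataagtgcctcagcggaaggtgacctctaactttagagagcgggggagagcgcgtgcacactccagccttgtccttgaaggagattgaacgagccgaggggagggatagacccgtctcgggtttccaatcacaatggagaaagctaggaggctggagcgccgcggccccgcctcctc
Pgk1, chrX:106186850-106187099, plus strand: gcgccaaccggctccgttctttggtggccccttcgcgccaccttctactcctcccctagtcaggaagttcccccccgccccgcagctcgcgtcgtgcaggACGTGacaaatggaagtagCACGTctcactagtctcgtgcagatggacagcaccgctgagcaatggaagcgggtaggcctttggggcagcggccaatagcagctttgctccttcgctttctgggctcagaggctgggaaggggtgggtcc
G6pdx, chrX:74428881-74429130, minus strand: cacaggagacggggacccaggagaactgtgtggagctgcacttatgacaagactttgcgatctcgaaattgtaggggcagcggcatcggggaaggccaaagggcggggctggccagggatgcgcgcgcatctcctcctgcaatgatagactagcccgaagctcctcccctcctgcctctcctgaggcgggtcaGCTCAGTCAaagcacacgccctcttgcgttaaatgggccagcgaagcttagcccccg
Searched on both strands, ACGTG occurred 2 times in the Hk2 window, with its first base 226 and 52 bases before the start, 2 times in Pgk1, at 150 and 131 bases, and not in Ldhb. In Ldha it gave 5 matches, because the 2 palindromes CACGTG (the E-box bound by Myc and related factors) each contain ACGTG on both strands. The G6pdx window held 1 antioxidant core, 57 bases before the start. Of 35 members with a RefSeq promoter entry, 11 held ACGTG (31.4%), against 4467 of 27025 promoters of this length (16.5%). The E-box CACGTG, which is part of the ACGTG count, was in 4 of 35 (11.4%) against 6.0% of all, and TGACNNNGC in 1 of 35 (2.9%) against 10.1%. The 5 windows shown do not stand for all members. Pfkm, Pfkfb3 and Pdk2 held ACGTG too but rose in all 3 media, while Eno1, Cs and Fh1 fell in all 3 and held none. Pgd, Tkt and Taldo1, which were also highest in the Oligodendrocyte medium, held no TGACNNNGC. A match describes letters only, and no binding was measured in these libraries.

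The libraries differed little in depth, with 49.3 to 66.2 M reads behind the CPM (counts divided by the library total and scaled to 1 common total) of each, as estimated from the spacing of low values. The listed genes summed to 74.95 to 76.94% of that common total in NSC and 76.11 to 78.01% in Neuron. Their share was 79.72 to 80.01% in Astrocyte and 80.07 to 80.25% in Oligodendrocyte. The part of this difference in the results was not tested. Across genes, log2(CPM + 1) of replicate libraries correlated with r from 0.990 to 0.999, and no r across groups exceeded 0.961. Cell cycle genes fell in every medium: the 6 markers summed to 2489 to 2537 CPM in NSC and to 115 to 174 CPM at day 4. The cultures were mixed by their markers. The 7 neural progenitor markers summed to 3487 to 3620 CPM in NSC and 3227 to 3604 in Astrocyte. Their sums were 1593 to 1987 CPM in Neuron and 2163 to 2212 in Oligodendrocyte. In Astrocyte, Vim rose from a mean of 1863 to 2663 CPM, and Nes fell from 1251 to 199. The 6 oligodendrocyte precursor markers summed to 1790 to 1921 CPM in NSC and 707 to 794 in Astrocyte. They reached 1603 to 2161 CPM in Neuron and 1335 to 1458 in Oligodendrocyte. The astrocyte markers (8 genes) summed to 1571 to 1636 CPM in NSC, 13242 to 14883 in Astrocyte, 7963 to 8671 in Neuron and 3232 to 3614 in Oligodendrocyte. The mature oligodendrocyte markers (7 genes) summed to 69.9 to 78.3 CPM in NSC, 423 to 541 in Astrocyte, 2628 to 2801 in Neuron and 2524 to 2890 in Oligodendrocyte. The 7 neuron markers matched summed to 13.3 to 15.2 CPM in NSC, 152 to 207 in Astrocyte, 143 to 226 in Neuron and 136 to 146 in Oligodendrocyte, so Neuron overlapped Astrocyte. Of these, Dcx, of immature neurons, had 1.33 to 2.02 CPM in NSC, 113 to 141 in Astrocyte, 106 to 177 in Neuron and 85.2 to 88.1 in Oligodendrocyte. Tubb3 had 3.51 to 4.48, 30.1 to 56.4, 24.9 to 30.5 and 41.9 to 47.7 CPM in the same order. Syt1 was highest in Neuron, at 8 to 12.8 CPM against at most 6.71 elsewhere, as was Rbfox3, at 1.65 to 2.80 CPM against at most 1.36, and Stmn2 and Nefl reached at most 0.98 and 0.50 CPM in any library. Microglial markers (6 genes) summed to at most 1.32 CPM and endothelial markers (5 genes) to at most 7.37 CPM, with Aif1, Cx3cr1 and Cdh5 at or near 0. The mesenchymal list (6 genes) reached 42.5 CPM in Astrocyte and 41.8 in Neuron, nearly all of it Pdgfrb, and 10.1 CPM in Oligodendrocyte. RNA of the mitochondrial genome made up 4.64 ± 0.09% of the CPM denominator in NSC (SD, n = 3), 7.48 ± 0.76% in Astrocyte, 7.55 ± 1.18% in Neuron (n = 3 each) and 6.41 ± 0.40% in Oligodendrocyte (n = 2). The part of these shifts in the results below was not tested. In bulk RNA, fewer cells of a type and less RNA per cell cannot be told apart.

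Against the stem cells, the 36 genes did not move as 1 block: 7 isoenzyme genes (Hk1, Hk2, Pfkm, Aldoc, Eno2, Ldha and Ldhb) and 3 kinase genes changed at least 2-fold in every medium, while the TCA cycle genes fell in the Neuron medium and were mixed in the other two. Together the 36 genes made up 0.649 ± 0.032% of the CPM denominator in NSC (SD, n = 3), 0.795 ± 0.037% in Astrocyte and 0.556 ± 0.034% in Neuron (n = 3 each), and 0.891 ± 0.008% in Oligodendrocyte (n = 2). A gene was called where limma's moderated test on log2(CPM + 1) gave an adjusted p under 0.05 (Benjamini-Hochberg over 13342 genes). Most genes of the table were called too, so counts of members are read against that background.

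In the Astrocyte medium 19 of 36 members rose and 8 fell against NSC, where 48% of all genes tested rose and 35.6% fell. With a change of at least 2-fold the count was 10 up and 2 down, against 21.4% and 12.3% of all genes. The members' median log2 fold change was 0.30, and that of all genes was 0.15. In the Neuron medium 11 rose and 22 fell (background 43.5% and 39.6%), 8 and 7 of them by at least 2-fold (17.9% and 13.8%), with a median of -0.51 against 0.06. In the Oligodendrocyte medium 24 rose and 6 fell (48.1% and 32.2%), 14 and 2 by at least 2-fold (21.2% and 10.7%), with a median of 0.57 against 0.19. The 3 comparisons share the NSC libraries. Scaling by the median of ratios moved the median of all genes to -0.01 for Astrocyte and to 0.00 for Oligodendrocyte, and the split of members became 18 up and 15 down for Astrocyte and 20 up and 9 down for Oligodendrocyte. Calls of up to 0.44 on the log2 scale (Tkt in Oligodendrocyte) were lost under that scaling.

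**Figure D1:**
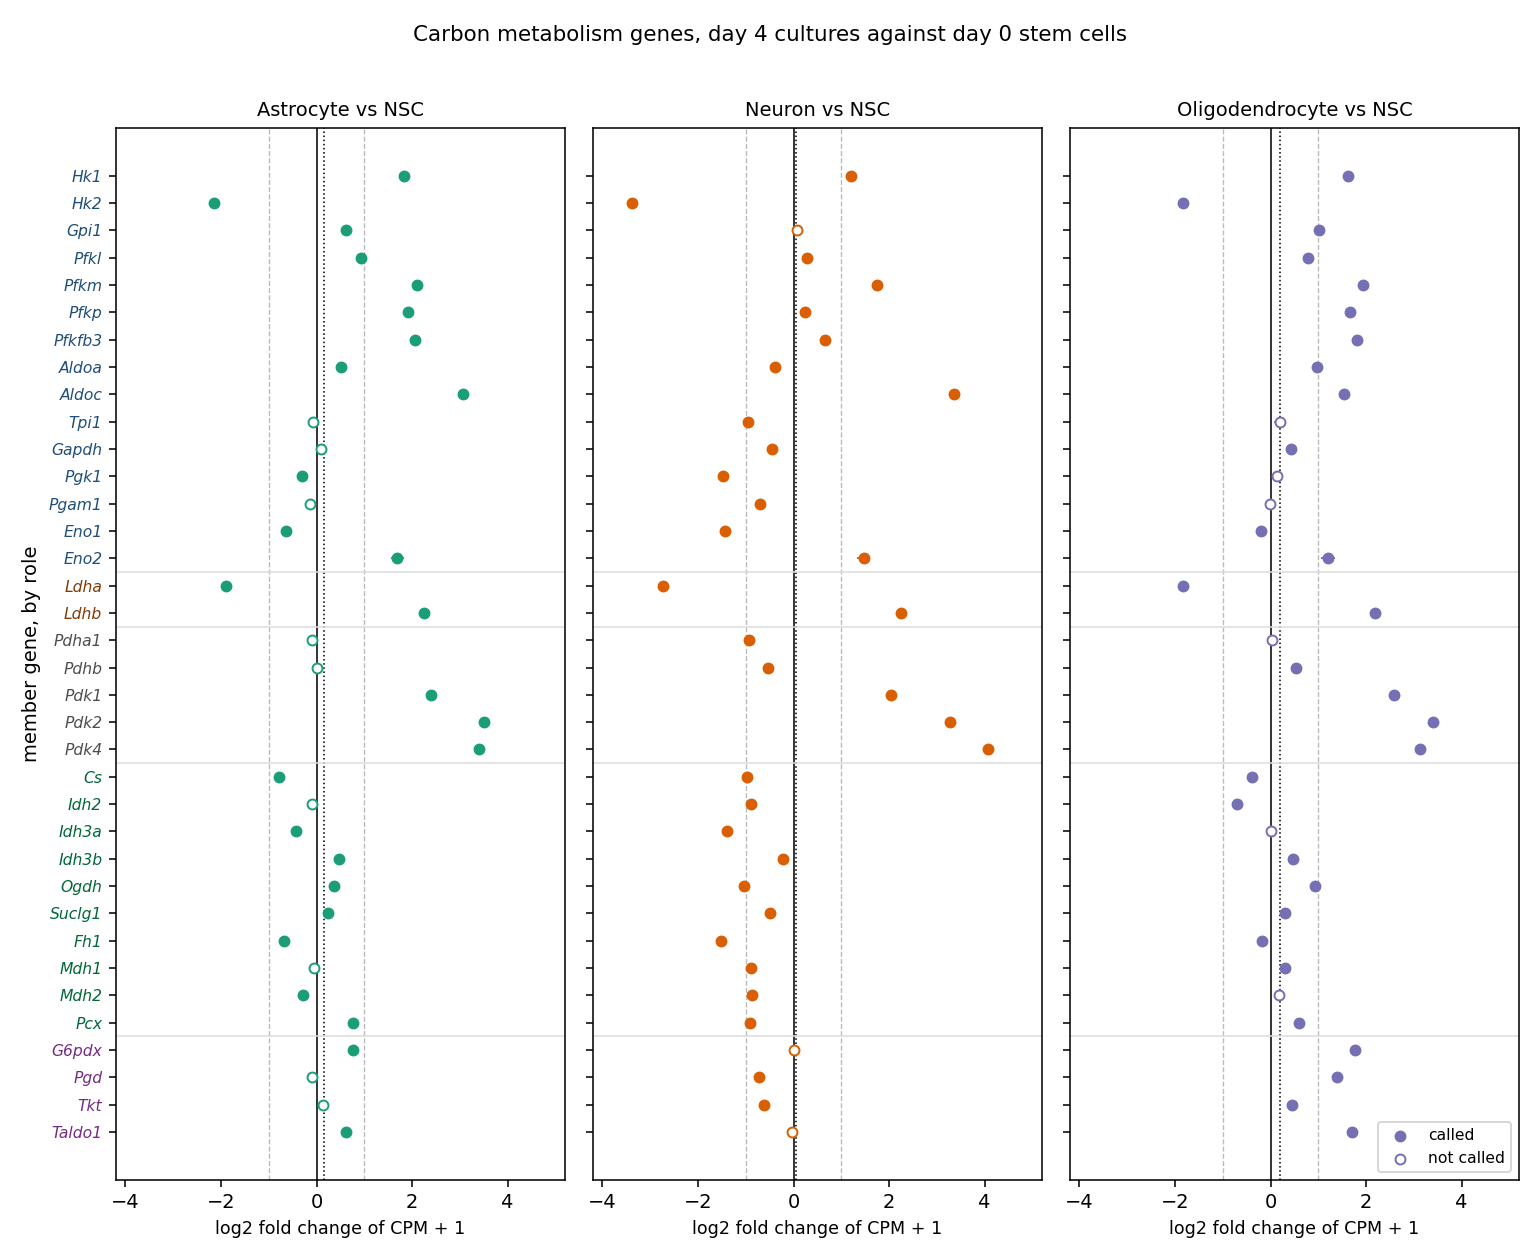
Log2 fold change of CPM + 1 (x axis) of each of the 36 genes (y axis, ordered and coloured by role) in each day 4 medium against NSC, with bars for the standard error (often smaller than the point), filled points for called genes, dashed lines at 2-fold and a dotted line at the median of all 13342 genes. Pdk1, Pdk2, Pdk4 and Ldhb lie far to the right and Hk2 and Ldha far to the left in all 3 panels, while all 10 genes from Cs to Pcx lie left of 0 in the Neuron panel.

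Of the 36 genes, 11 were called higher in all 3 media (Hk1, Pfkl, Pfkm, Pfkp, Pfkfb3, Aldoc, Eno2, Ldhb, Pdk1, Pdk2 and Pdk4) and 5 were called lower in all 3 (Hk2, Eno1, Ldha, Cs and Fh1), where 34.4% and 25.9% of all genes tested were. At least 2-fold in all 3 were 8 of the former (not Pfkl, Pfkp and Pfkfb3) and, of the latter, Hk2 and Ldha, against 11.8% and 7.65% of all genes. In 22 of the 36 genes every Neuron library lay below every other library (16.6% of all genes tested), and in 14 every Oligodendrocyte library lay above every other library (17.6%).

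Glucose entry was marked by a change of hexokinase and by higher levels of the glucose carrier Slc2a1 in Astrocyte and Oligodendrocyte. Hexokinases trap glucose in the cell as glucose-6-phosphate. Hk1 (ENSMUSG00000037012, mm9 chr10:61731603-61842656) encodes the form bound to mitochondria that predominates in brain. It read 74.4, 76.3 and 80.6 CPM in NSC, 262, 296 and 271 in Astrocyte, 174, 179.6 and 184 in Neuron, and 235 and 239.8 in Oligodendrocyte. Every day 4 library was above every NSC library, and Astrocyte was highest. The log2 fold change was 1.83 (SE 0.06, adjusted p = 3.41e-12) in Astrocyte, 1.21 (SE 0.06, adjusted p = 2.82e-10) in Neuron and 1.61 (SE 0.07, adjusted p = 5.51e-11) in Oligodendrocyte. Hk2 (ENSMUSG00000000628, mm9 chr6:82675019-82724448) encodes the form induced in growing and hypoxic cells. It read 29.2, 29.9 and 29.0 CPM in NSC, 6.05, 5.18 and 6.26 in Astrocyte, 2.15, 1.50 and 2.13 in Neuron, and 7.20 and 7.97 in Oligodendrocyte. All NSC libraries were high and all day 4 libraries low, with Neuron lowest and no overlap between any pair of groups. Hk2 fell by 2.15 (SE 0.10, adjusted p = 1.37e-10) in Astrocyte, by 3.38 (SE 0.10, adjusted p = 1.54e-12) in Neuron and by 1.82 (SE 0.11, adjusted p = 3.51e-09) in Oligodendrocyte on the log2 scale. Per kb of exon, Hk2 made up 24.8 ± 0.9% of the hexokinase signal of Hk1 and Hk2 in NSC (SD, n = 3) and 1.80 ± 0.27%, 0.92 ± 0.18% and 2.68 ± 0.15% in Astrocyte, Neuron and Oligodendrocyte (n = 3, 3 and 2).

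The carrier Slc2a1 (GLUT1), which is no member, differed by medium. It read 35.1, 36.7 and 36.9 CPM in NSC, 158, 153 and 150.2 in Astrocyte, 42.0, 42.0 and 44.2 in Neuron, and 112 and 98.4 in Oligodendrocyte. Astrocyte and Oligodendrocyte were each above the other groups, and Neuron was close to NSC. Its log2 fold change was 2.06 (SE 0.06, adjusted p = 1.04e-12) in Astrocyte, 1.51 (SE 0.07, adjusted p = 1.09e-10) in Oligodendrocyte and 0.23 (SE 0.06, adjusted p = 0.00269) in Neuron. Slc2a3 (GLUT3), the high-affinity carrier of neurons, had 12.4 to 13.8 CPM in NSC, 22.0 to 26.5 in Astrocyte and 27.2 to 29.6 in Neuron, and 15.4 to 16.4 in Oligodendrocyte, and was highest in Neuron. Gpi1 turns glucose-6-phosphate into fructose-6-phosphate. It read 261, 259 and 283 CPM in NSC, 397, 427 and 414 in Astrocyte, 264, 299 and 283 in Neuron, and 540.0 and 542 in Oligodendrocyte. Oligodendrocyte was highest and Astrocyte next, while the Neuron libraries overlapped those of NSC. The rise was 1.01 (SE 0.07, adjusted p = 1.41e-08) in Oligodendrocyte and 0.62 (SE 0.06, adjusted p = 6.12e-07) in Astrocyte, and the Neuron value was 0.07 (SE 0.06, adjusted p = 0.284).

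Phosphofructokinase, the committed step of glycolysis, has a muscle-type (Pfkm), a liver-type (Pfkl) and a platelet-type (Pfkp) subunit. Pfkm (ENSMUSG00000033065, mm9 chr15:97923020-97962878) read 67.2, 65.4 and 75.7 CPM in NSC, 290.1, 307 and 306 in Astrocyte, 220.2, 247 and 236 in Neuron, and 282 and 252 in Oligodendrocyte. It was the leading form per kb in every group and rose by 2.10 (SE 0.07, adjusted p = 4.68e-12) in Astrocyte, 1.74 (SE 0.07, adjusted p = 3.64e-11) in Neuron and 1.93 (SE 0.08, adjusted p = 5.08e-11) in Oligodendrocyte on the log2 scale. Its day 4 groups lay close together, and the difference between Oligodendrocyte and Neuron was 0.19 (SE 0.08, adjusted p = 0.0531), which missed the threshold. Pfkp (ENSMUSG00000021196, mm9 chr13:6579014-6648023) separated the media instead. It read 32.3, 33.7 and 33.3 CPM in NSC, 134, 126 and 122 in Astrocyte, 38.1, 38.6 and 40.9 in Neuron, and 105 and 109 in Oligodendrocyte. Neuron stayed close to NSC, although without overlap, and Astrocyte and Oligodendrocyte were well above both. Against Neuron the log2 difference was 1.68 (SE 0.06, adjusted p = 8.94e-11) for Astrocyte and 1.42 (SE 0.06, adjusted p = 7.5e-10) for Oligodendrocyte. Pfkl moved less, with means of 27.3 ± 1.42, 53.3 ± 1.79, 33.4 ± 2.01 and 47.5 ± 2.53 CPM in NSC, Astrocyte, Neuron and Oligodendrocyte (SD, n = 3, 3, 3 and 2). As shares of the 3 genes per kb, Pfkm was 60.6 ± 1.4% in NSC, 69.5 ± 1.3% in Astrocyte, 81.2 ± 1.1% in Neuron and 70.3 ± 2.4% in Oligodendrocyte, and Pfkp was 20.2 ± 1.2%, 20.6 ± 1.3%, 9.49 ± 0.42% and 19.7 ± 1.4%.

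The activator of that step followed Pfkp. Pfkfb3 makes fructose-2,6-bisphosphate, the strongest allosteric activator of phosphofructokinase. It read 28.9, 31.2 and 31.5 CPM in NSC, 143, 129 and 120.2 in Astrocyte, 49.6, 42.6 and 54.4 in Neuron, and 113 and 106 in Oligodendrocyte. Astrocyte and Oligodendrocyte lay above Neuron, and Neuron lay above NSC, with no overlap between these levels. The log2 difference from Neuron was 1.41 (SE 0.09, adjusted p = 1.89e-08) for Astrocyte and 1.15 (SE 0.10, adjusted p = 2.9e-07) for Oligodendrocyte. Pfkfb4, a related enzyme that is no member, went from 2.99 to 3.96 CPM in NSC to 23.6 to 24.2 in Astrocyte and 22.6 to 24.7 in Oligodendrocyte, but only to 4.86 to 5.38 in Neuron. Its difference from Neuron was 2.02 (SE 0.09, adjusted p = 6.74e-10) for Astrocyte and 2.00 (SE 0.10, adjusted p = 1.52e-09) for Oligodendrocyte.

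Aldolase splits fructose-1,6-bisphosphate, and its 2 genes changed in unequal measure between media. Aldoa (ENSMUSG00000030695, mm9 chr7:133938748-133944265), the general form, read 309.5, 303 and 336 CPM in NSC, 415, 461 and 480.5 in Astrocyte, 220.0, 274 and 229 in Neuron, and 603 and 636 in Oligodendrocyte. Oligodendrocyte was highest and Neuron lowest, and no groups overlapped. Aldoa rose by 0.51 (SE 0.09, adjusted p = 7.8e-05) in Astrocyte and 0.97 (SE 0.10, adjusted p = 5.07e-07) in Oligodendrocyte, while its Neuron value was -0.40 (SE 0.09, adjusted p = 0.000736). Aldoc (ENSMUSG00000017390, mm9 chr11:78136470-78141283), the brain form concentrated in astrocytes, read 107, 109 and 118 CPM in NSC, 872, 903 and 1025 in Astrocyte, 1102, 1227 and 1139 in Neuron, and 359 and 296 in Oligodendrocyte. Neuron was highest, Astrocyte next and Oligodendrocyte well below both, with every day 4 library above NSC. The rise was 3.37 (SE 0.09, adjusted p = 3.33e-13) in Neuron, 3.06 (SE 0.09, adjusted p = 7.37e-13) in Astrocyte and 1.55 (SE 0.10, adjusted p = 3.6e-09) in Oligodendrocyte. Between the media with and without added T3, Aldoc differed by -1.82 (SE 0.10, adjusted p = 3.16e-09), Oligodendrocyte minus Neuron. The summed astrocyte markers, given above, were lower in Oligodendrocyte than in Neuron too, but higher in Astrocyte than in Neuron, where Aldoc was highest. Gfap weighed on that sum, with means of 7631 CPM in Astrocyte and 2647 in Neuron. By gene, 3 of the 8 markers were called higher in Astrocyte than in Neuron and 4 lower. Their median was -0.16, and the background was 40.3% higher and 22% lower. Their part in the result was not tested.

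The steps from triose phosphate to phosphoenolpyruvate are each carried by 1 main gene, and these went down in the Neuron medium. Tpi1, which interconverts the triose phosphates, read 174, 174 and 200.1 CPM in NSC, 155, 178 and 185 in Astrocyte, 84.8, 111 and 86.1 in Neuron, and 204 and 213 in Oligodendrocyte. Neuron was the low group, and the Astrocyte libraries overlapped NSC. The Neuron change was -0.96 (SE 0.10, adjusted p = 8.16e-07), and Oligodendrocyte stood 1.15 (SE 0.11, adjusted p = 1.14e-06) above Neuron. Pgk1, the first step that yields ATP, whose promoter is shown above, read 371, 362 and 389.5 CPM in NSC, 286, 302 and 317 in Astrocyte, 127, 141 and 135 in Neuron, and 404 and 419 in Oligodendrocyte. It fell by 1.47 (SE 0.06, adjusted p = 5.5e-11) in Neuron and by 0.31 (SE 0.06, adjusted p = 0.000386) in Astrocyte, and its Oligodendrocyte value was 0.14 (SE 0.07, adjusted p = 0.085), which missed the threshold. The Astrocyte call was lost after quantile normalization (adjusted p = 0.123). Eno1 (ENSMUSG00000063524, mm9 chr4:149610830-149622988), the general enolase, read 635, 627 and 681 CPM in NSC, 389, 419 and 443 in Astrocyte, 224, 249 and 239 in Neuron, and 555 and 566 in Oligodendrocyte. It went down in all 3 media, by 1.45 (SE 0.07, adjusted p = 1.49e-10) in Neuron, 0.64 (SE 0.07, adjusted p = 8.92e-07) in Astrocyte and 0.21 (SE 0.07, adjusted p = 0.0217) in Oligodendrocyte, the last lost after quantile normalization (adjusted p = 0.133) and without either Oligodendrocyte library (adjusted p = 0.101 and 0.0631).

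Gapdh and Pgam1 moved less than 2-fold in every comparison. Gapdh, often taken as a constant reference gene, had means of 390.2 ± 21.7, 418 ± 46.9, 286 ± 25.8 and 525 ± 4.72 CPM in NSC, Astrocyte, Neuron and Oligodendrocyte (SD, n = 3, 3, 3 and 2). It was called lower in Neuron (-0.45, SE 0.09, adjusted p = 0.00031) and higher in Oligodendrocyte (0.43, SE 0.10, adjusted p = 0.00114), the latter lost with median-of-ratios scaling (adjusted p = 0.0932). Pgam1, which moves the phosphate of phosphoglycerate, had means of 186 ± 11.8, 168 ± 3.22, 114 ± 10.2 and 185 ± 5.44 CPM in the same order, and was called only in Neuron (-0.70, SE 0.07, adjusted p = 4.72e-07) among the comparisons with NSC. Gapdh, Pgk1, Tpi1, Pgam1, Aldoa, Eno1 and Ldha have processed copies elsewhere in the mouse genome, and how reads matching several places were counted is not given in the sources used here. The 6 copies listed under names derived from Tpi1, Pgk1, Pgam1 or Ldha held at most 0.29 CPM.

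Eno2 (ENSMUSG00000004267, mm9 chr6:124710071-124719691), neuron-specific enolase, read 3.61, 3.36 and 3.86 CPM in NSC, 17.0, 12.4 and 12.6 in Astrocyte, 13.9, 10.1 and 11.5 in Neuron, and 10.6 and 8.74 in Oligodendrocyte. All day 4 libraries lay above NSC, Neuron overlapped both other day 4 groups, and Astrocyte had the highest mean. The rise was 1.69 (SE 0.13, adjusted p = 3.03e-08) in Astrocyte, 1.46 (SE 0.13, adjusted p = 1.47e-07) in Neuron and 1.21 (SE 0.15, adjusted p = 3.92e-06) in Oligodendrocyte. Per kb it remained a small share of enolase, 0.50 ± 0.02% in NSC, 3.00 ± 0.73% in Astrocyte, 4.36 ± 0.90% in Neuron and 1.55 ± 0.23% in Oligodendrocyte. Pkm, the pyruvate kinase gene of brain and of growing cells, is no member and went the same way as Eno1. It read 1035, 999 and 1102 CPM in NSC, 616, 650.1 and 697 in Astrocyte, 386, 400.3 and 399.7 in Neuron, and 688 and 699 in Oligodendrocyte, a fall of 1.40 (SE 0.07, adjusted p = 1.69e-10) in Neuron, 0.68 (SE 0.07, adjusted p = 3.78e-07) in Astrocyte and 0.59 (SE 0.07, adjusted p = 5.6e-06) in Oligodendrocyte. The values are per gene, so the splice forms of Pkm were not separated.

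Lactate dehydrogenase changed over from its A to its B subunit in all 3 media. The A subunit favours making lactate from pyruvate, and the B subunit is typical of tissues that take lactate up and oxidise it. Ldha (ENSMUSG00000063229, mm9 chr7:54096845-54110997) read 459, 436 and 483 CPM in NSC, 112, 120.4 and 139.7 in Astrocyte, 63.7, 76.4 and 65.7 in Neuron, and 119.9 and 135 in Oligodendrocyte. NSC was high, Neuron lowest, and the Astrocyte and Oligodendrocyte libraries overlapped. Ldha fell by 1.89 (SE 0.09, adjusted p = 1.76e-10) in Astrocyte, 2.73 (SE 0.09, adjusted p = 4.36e-12) in Neuron and 1.84 (SE 0.10, adjusted p = 9.84e-10) in Oligodendrocyte. Ldhb (ENSMUSG00000030246, mm9 chr6:142438769-142456477) read 89.6, 87.6 and 98.9 CPM in NSC, 429, 441 and 462 in Astrocyte, 394, 496 and 430.5 in Neuron, and 446 and 403 in Oligodendrocyte. The 3 day 4 groups overlapped each other and all lay above NSC. The rise was 2.26 (SE 0.08, adjusted p = 1.15e-11) in Astrocyte, 2.24 (SE 0.08, adjusted p = 1.41e-11) in Neuron and 2.19 (SE 0.09, adjusted p = 7.06e-11) in Oligodendrocyte. Per kb, Ldhb went from 22.5 ± 0.4% of the pair in NSC (SD, n = 3) to 83.9 ± 1.0% in Astrocyte, 90.3 ± 0.3% in Neuron (n = 3 each) and 82.8 ± 2.2% in Oligodendrocyte (n = 2).

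The lactate and pyruvate carrier Slc16a1 (MCT1), no member, read 80.8, 79.1 and 79.1 CPM in NSC, 215, 211 and 209 in Astrocyte, 36.3, 44.4 and 38.4 in Neuron, and 185 and 173 in Oligodendrocyte. It was high in Astrocyte and Oligodendrocyte and lowest in Neuron, with no overlap. The log2 fold change against NSC was 1.40 (SE 0.07, adjusted p = 2.27e-10) in Astrocyte, 1.16 (SE 0.08, adjusted p = 7.43e-09) in Oligodendrocyte and -0.99 (SE 0.07, adjusted p = 9.6e-09) in Neuron. Slc16a3 (MCT4), a carrier of highly glycolytic cells, had at most 0.39 CPM in any library and was under the filter.

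**Figure D2:**
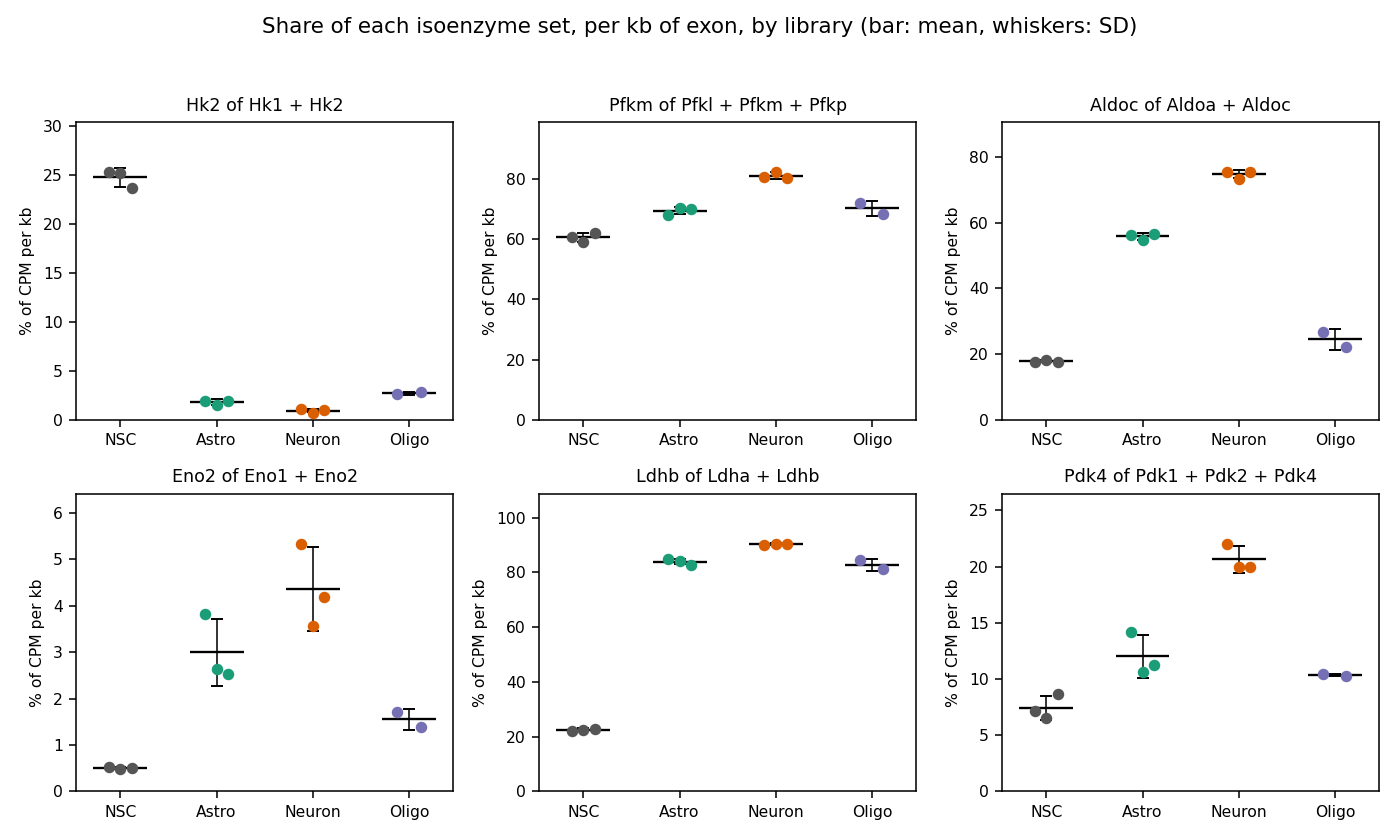
Share of CPM per kb of exon (y axis, %) taken by 1 gene of each isoenzyme set in each library, by group (x axis), with the mean as a bar and the SD as whiskers. Group means of Ldhb go from 22.5% to at least 82.8% and those of Hk2 from 24.8% to at most 2.68%, while the mean share of Aldoc is 74.7% in Neuron and 24.5% in Oligodendrocyte.

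Ratios of 2 genes within a library, taken on CPM + 1, set isoenzymes against each other, and 8 such ratios were tested over the 4 groups at once with an exact permutation test (non-directional, 92400 arrangements of the 11 libraries, adjusted over the 8 ratios). The smallest p it can give is 6.5e-05. All 8 passed. The log2 ratio Ldhb/Ldha was -2.31 ± 0.04 in NSC, 1.84 ± 0.11 in Astrocyte, 2.66 ± 0.05 in Neuron and 1.73 ± 0.22 in Oligodendrocyte (SD, n = 3, 3, 3 and 2; exact p = 0.00039, adjusted p = 0.00052). Hk2/Hk1 went from -1.36 ± 0.07 in NSC to -5.34 ± 0.21, -5.95 ± 0.20 and -4.80 ± 0.07 in Astrocyte, Neuron and Oligodendrocyte (exact permutation p = 6.5e-05, adjusted 0.00017). The added 1 CPM shrinks this ratio, since Hk2 was low at day 4: without it, an alternative chosen after seeing the data, the means were -1.39 ± 0.07 in NSC, -5.57 ± 0.23 in Astrocyte, -6.56 ± 0.30 in Neuron and -4.97 ± 0.08 in Oligodendrocyte (SD, n = 3, 3, 3 and 2). Aldoc/Aldoa crossed 0 in some media only, at -1.50 ± 0.03 in NSC, 1.04 ± 0.07 in Astrocyte, 2.26 ± 0.09 in Neuron and -0.92 ± 0.25 in Oligodendrocyte (exact permutation p = 6.5e-05, adjusted 0.00017). Pfkp/Pfkl was 0.27 ± 0.07 in NSC and 0.22 ± 0.04 in Neuron, but 1.24 ± 0.11 in Astrocyte and 1.15 ± 0.03 in Oligodendrocyte (exact permutation p = 0.0023, adjusted 0.0023). The other 4 ratios (Pfkm/Pfkl, Eno2/Eno1, Pdk2/Pdk1 and Pdk4/Pdk1) had adjusted exact permutation p-values of 0.00017 to 0.00089. Without the added 1 CPM the NSC mean of Pdk4/Pdk1 was -2.36 ± 0.26 in place of -1.71 ± 0.16 (SD, n = 3), and the adjusted exact permutation p-values of all 8 ratios lay between 0.00017 and 0.0023. For a single pair of groups, 3 libraries against 3 cannot give an exact two-sided p below 0.10.

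The genes around pyruvate dehydrogenase did not divide by role. The 3 member kinases that switch the complex off, Pdk1, Pdk2 and Pdk4, rose in every medium. The phosphatase gene Pdp1, whose product switches it on, also rose in every medium. Both E1 subunits fell in the Neuron medium. The kinase gene Pdk3, which is no member and was picked after its values were seen, fell by 0.58 (SE 0.08, adjusted p = 1.62e-05) in Neuron, rose by 0.49 (SE 0.09, adjusted p = 0.000217) in Oligodendrocyte and had 0.12 (SE 0.08, adjusted p = 0.194) in Astrocyte, which missed the threshold. Pdk1 (ENSMUSG00000006494, mm9 chr2:71711281-71741915) read 6.38, 6.47 and 6.15 CPM in NSC, 36.5, 38.9 and 36.8 in Astrocyte, 28.8, 29.3 and 29.1 in Neuron, and 44.7 and 41.4 in Oligodendrocyte. Every day 4 library was above NSC, Oligodendrocyte highest and Neuron lowest of the 3. The log2 rise was 2.39 (SE 0.06, adjusted p = 3.2e-13) in Astrocyte, 2.03 (SE 0.06, adjusted p = 1.7e-12) in Neuron and 2.59 (SE 0.07, adjusted p = 8.14e-13) in Oligodendrocyte. Pdk2 (ENSMUSG00000038967, mm9 chr11:94887572-94902668) read 6.84, 7.41 and 7.36 CPM in NSC, 88.4, 102 and 86.7 in Astrocyte, 70.9, 85.7 and 78.8 in Neuron, and 87.1 and 83.6 in Oligodendrocyte. The day 4 groups lay close together, with some overlap, and far above NSC. The rise was 3.50 (SE 0.08, adjusted p = 1.19e-13) in Astrocyte, 3.27 (SE 0.08, adjusted p = 2.24e-13) in Neuron and 3.40 (SE 0.09, adjusted p = 7.76e-13) in Oligodendrocyte. Pdk4 (ENSMUSG00000019577, mm9 chr6:5433351-5446309), the kinase induced by fasting and fatty acids, read 1.15, 1.10 and 1.47 CPM in NSC, 26.8, 21.8 and 20.1 in Astrocyte, 36.6, 38.0 and 35.5 in Neuron, and 19.2 and 18.1 in Oligodendrocyte. Neuron was highest, without overlap. It rose by 4.08 (SE 0.10, adjusted p = 2.48e-13) in Neuron, 3.41 (SE 0.10, adjusted p = 1.17e-12) in Astrocyte and 3.14 (SE 0.11, adjusted p = 1.26e-11) in Oligodendrocyte, values that the pseudocount of 1 keeps below the true fold because NSC was near 1 CPM.

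Both E1 subunits were lowest in the Neuron medium. Pdhb, the beta subunit of the E1 enzyme, read 84.6, 80.8 and 95.2 CPM in NSC, 86.9, 87.7 and 88.7 in Astrocyte, 57.2, 61.8 and 58.7 in Neuron, and 126 and 126 in Oligodendrocyte. Oligodendrocyte was highest, Neuron lowest, and Astrocyte overlapped NSC. The change was 0.54 (SE 0.07, adjusted p = 9.97e-06) in Oligodendrocyte and -0.54 (SE 0.06, adjusted p = 2.61e-06) in Neuron. Pdha1, the alpha subunit and the target of the kinases, had means of 323 ± 8.84, 301 ± 9.72, 168 ± 6.81 and 331 ± 10.6 CPM in NSC, Astrocyte, Neuron and Oligodendrocyte (SD, n = 3, 3, 3 and 2), and was called against NSC only in Neuron (-0.94, SE 0.06, adjusted p = 2.01e-09). Among 8 other genes of this step, 3 rose and 1 fell in Astrocyte, 2 rose and 6 fell in Neuron, and 5 rose and 1 fell in Oligodendrocyte, with medians of 0.06, -0.51 and 0.38. Of all genes tested, 48% rose and 35.6% fell in Astrocyte, 43.5% and 39.6% in Neuron, and 48.1% and 32.2% in Oligodendrocyte. The phosphatase Pdp1, which reverses the kinases, read 12.3, 11.5 and 12.5 CPM in NSC, 84.5, 82.9 and 83.9 in Astrocyte, 32.6, 43.5 and 35.2 in Neuron, and 84.7 and 94.2 in Oligodendrocyte. It rose by 2.70 (SE 0.09, adjusted p = 4.03e-12) in Astrocyte, 1.53 (SE 0.09, adjusted p = 1.66e-09) in Neuron and 2.79 (SE 0.10, adjusted p = 1.31e-11) in Oligodendrocyte. The phosphatase gene Pdp2, also picked after its values were seen, fell by 0.92 (SE 0.16, adjusted p = 0.000146) in Neuron, and its values of -0.10 (SE 0.16, adjusted p = 0.585) in Astrocyte and 0.17 (SE 0.18, adjusted p = 0.402) in Oligodendrocyte missed the threshold. Dlat, the E2 subunit, fell by 1.18 (SE 0.06, adjusted p = 2.82e-10) in Neuron, 0.68 (SE 0.06, adjusted p = 8.62e-08) in Astrocyte and 0.26 (SE 0.07, adjusted p = 0.00262) in Oligodendrocyte. Mpc2, a subunit of the carrier that brings pyruvate into mitochondria, rose by 1.14 (SE 0.10, adjusted p = 1.59e-07), 0.89 (SE 0.10, adjusted p = 2.19e-06) and 1.46 (SE 0.12, adjusted p = 4.72e-08) in Astrocyte, Neuron and Oligodendrocyte.

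**Figure D3:**
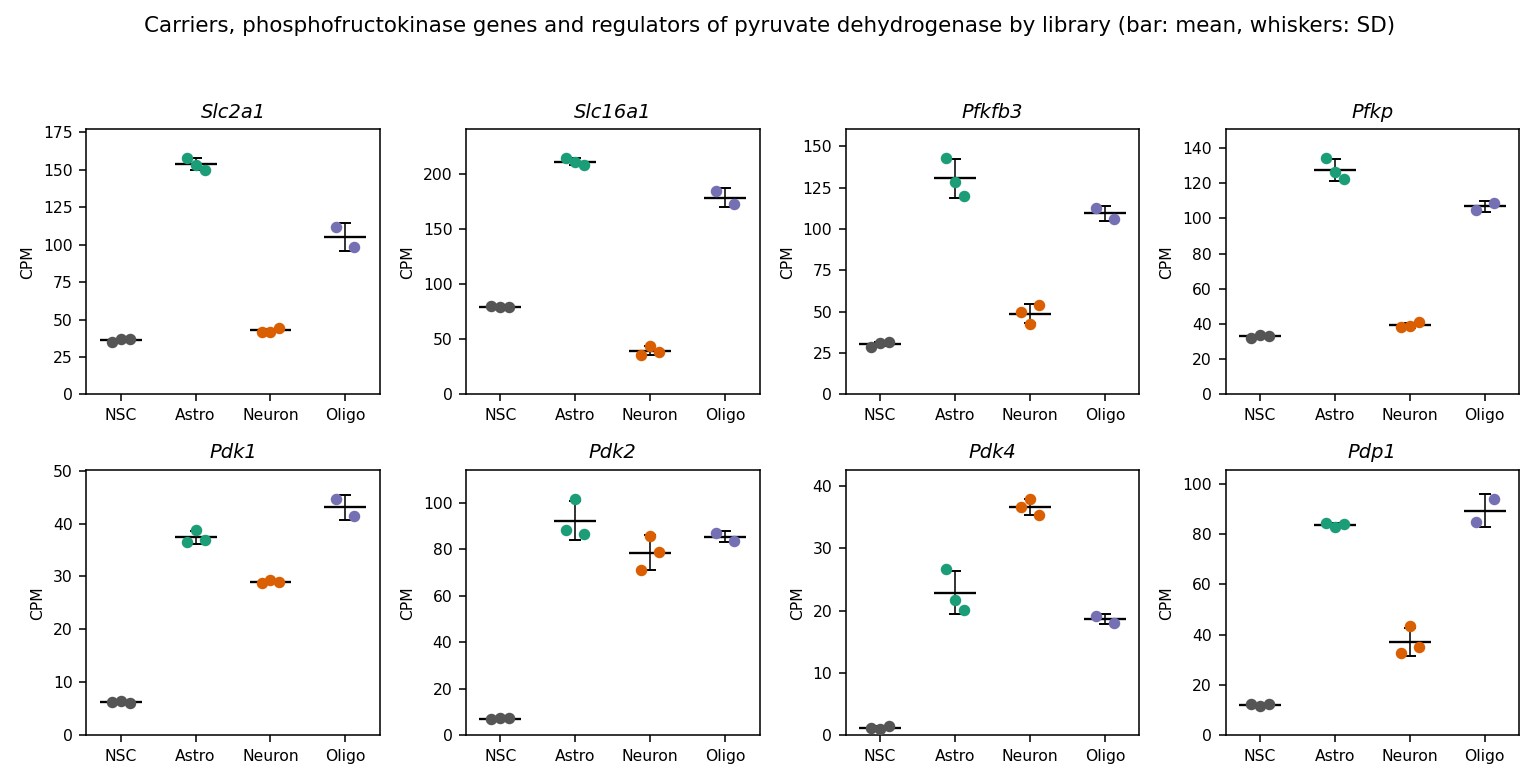
CPM in each library (y axis) of 8 genes by group (x axis), with the mean as a bar and the SD as whiskers. Slc2a1, Slc16a1, Pfkfb3 and Pfkp (top) are high in Astrocyte and Oligodendrocyte and low in NSC and Neuron, whereas Pdk1, Pdk2, Pdk4 and Pdp1 (bottom) are above NSC in every day 4 library.

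The TCA cycle genes and Pcx went down as a set in the Neuron medium: 10 of 10 were called lower than in NSC and their median was -0.90 on the log2 scale, against 39.6% of all genes lower and a median of 0.06. In Astrocyte 4 rose and 4 fell (median -0.07, background 48% and 35.6%), and in Oligodendrocyte 5 rose and 3 fell (median 0.23, background 48.1% and 32.2%). After quantile normalization 9 of 10 were lower in Neuron. With median-of-ratios scaling the splits were 3 up and 6 down in Astrocyte and 3 up and 4 down in Oligodendrocyte, so these media gave no stable direction for the set. Ogdh (ENSMUSG00000020456, mm9 chr11:6191636-6256645), the oxoglutarate dehydrogenase that limits the second part of the cycle, read 136, 139 and 149 CPM in NSC, 175, 196 and 178 in Astrocyte, 67.1, 66.3 and 71.8 in Neuron, and 263 and 275 in Oligodendrocyte. The order was Oligodendrocyte, Astrocyte, NSC, Neuron, with no overlap. It changed by 0.92 (SE 0.07, adjusted p = 3.44e-08) in Oligodendrocyte, 0.37 (SE 0.06, adjusted p = 0.000104) in Astrocyte and -1.04 (SE 0.06, adjusted p = 2.39e-09) in Neuron. Idh3a, the catalytic subunit of the NAD-linked isocitrate dehydrogenase, read 187, 186 and 200.4 CPM in NSC, 146, 139.9 and 138 in Astrocyte, 68.4, 77.8 and 71.3 in Neuron, and 200.4 and 185 in Oligodendrocyte. Neuron was far below, and Oligodendrocyte overlapped NSC. It fell by 1.39 (SE 0.06, adjusted p = 1.08e-10) in Neuron and 0.43 (SE 0.06, adjusted p = 2.03e-05) in Astrocyte.

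Fh1 (fumarase) read 97.2, 98.2 and 108 CPM in NSC, 59.5, 64.8 and 63.1 in Astrocyte, 32.1, 38.3 and 34.1 in Neuron, and 88.8 and 89.0 in Oligodendrocyte. NSC was highest and Neuron lowest, and Fh1 fell in all 3 media, by 1.51 (SE 0.07, adjusted p = 1.44e-10) in Neuron, 0.68 (SE 0.07, adjusted p = 6.39e-07) in Astrocyte and 0.18 (SE 0.08, adjusted p = 0.0482) in Oligodendrocyte, the last lost under the replicate block (adjusted p = 0.0649) and without the filter (adjusted p = 0.0672), among other settings. Mdh2, the mitochondrial malate dehydrogenase, read 271, 271 and 299 CPM in NSC, 215, 230.5 and 250.1 in Astrocyte, 141, 169 and 147 in Neuron, and 316 and 314 in Oligodendrocyte. Mdh1, its cytosolic partner in the malate-aspartate shuttle, read 244, 236 and 281 CPM in NSC, 224, 242 and 265 in Astrocyte, 123, 154 and 131 in Neuron, and 308 and 312 in Oligodendrocyte. In both genes Neuron was the low group and Oligodendrocyte the high one. Mdh2 fell by 0.88 (SE 0.08, adjusted p = 1.37e-07) and Mdh1 by 0.89 (SE 0.09, adjusted p = 6.85e-07) in Neuron, and Oligodendrocyte stood above Neuron by 1.04 (SE 0.09, adjusted p = 2.34e-07) and 1.19 (SE 0.10, adjusted p = 3.68e-07).

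Pcx (ENSMUSG00000024892, mm9 chr19:4510472-4621752), pyruvate carboxylase, refills the cycle with oxaloacetate and in brain is an astrocyte enzyme. It read 105, 104 and 112 CPM in NSC, 163, 191 and 194 in Astrocyte, 58.1, 53.5 and 58.6 in Neuron, and 157 and 170.2 in Oligodendrocyte. Astrocyte and Oligodendrocyte overlapped at the top, and Neuron was lowest. The change against NSC was 0.76 (SE 0.07, adjusted p = 3.17e-07) in Astrocyte, 0.60 (SE 0.08, adjusted p = 1.22e-05) in Oligodendrocyte and -0.91 (SE 0.07, adjusted p = 5e-08) in Neuron. The astrocyte markers summed to most in Astrocyte and to more in Neuron than in Oligodendrocyte. Their part in the Pcx values was not tested. The other 4 genes of the set changed less than 2-fold throughout. Cs, the entry enzyme, had means of 632 ± 18.0, 368 ± 10.5, 324 ± 12.1 and 482 ± 12.1 CPM in NSC, Astrocyte, Neuron and Oligodendrocyte (SD, n = 3, 3, 3 and 2), and NSC was highest. Idh2, the NADP-linked mitochondrial form, had 157 ± 9.60, 147 ± 0.430, 84.2 ± 6.36 and 95.7 ± 0.467 CPM, and was the 1 gene of the set called lower in Oligodendrocyte than in Astrocyte (-0.62, SE 0.07, adjusted p = 1e-05). Idh3b, a regulatory subunit of the NAD-linked enzyme, had 102 ± 6.04, 140.4 ± 4.49, 87.0 ± 6.64 and 141 ± 14.4 CPM, and Suclg1, of succinyl-CoA ligase, had 88.6 ± 6.30, 104 ± 8.65, 63.5 ± 10.4 and 109 ± 0.926 CPM.

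The pentose phosphate genes rose together in the Oligodendrocyte medium. All 4 were called higher than in NSC there (median 1.56, background 48.1% higher), 3 of them by at least 2-fold. Scaling by the median of ratios left 3 of the 4 calls, without Tkt (adjusted p = 0.0517). In Astrocyte 2 of 4 rose (background 48%) and in Neuron 2 of 4 fell (background 39.6%). G6pdx (ENSMUSG00000031400, mm9 chrX:71654822-71674533), glucose-6-phosphate dehydrogenase, is the gate of the pathway. It read 66.5, 66.0 and 69.9 CPM in NSC, 106, 119.7 and 120.1 in Astrocyte, 65.5, 67.4 and 69.4 in Neuron, and 239.6 and 227 in Oligodendrocyte. Oligodendrocyte was highest, Astrocyte next, and NSC and Neuron overlapped. The change was 1.78 (SE 0.07, adjusted p = 2.89e-11) in Oligodendrocyte, 0.76 (SE 0.06, adjusted p = 5.32e-08) in Astrocyte and 0.00 (SE 0.06, adjusted p = 0.996) in Neuron. Pgd (ENSMUSG00000028961, mm9 chr4:148524100-148540880), the second enzyme that makes NADPH, read 104, 98.9 and 111 CPM in NSC, 90.6, 97.2 and 106 in Astrocyte, 60.0, 63.1 and 65.0 in Neuron, and 284 and 270.1 in Oligodendrocyte. Oligodendrocyte stood far above the rest, Astrocyte overlapped NSC and Neuron was lowest. It changed by 1.40 (SE 0.08, adjusted p = 8.61e-10) in Oligodendrocyte and -0.73 (SE 0.07, adjusted p = 2.38e-07) in Neuron.

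Taldo1 (transaldolase), of the arm that returns sugars to glycolysis, read 88.9, 89.1 and 100.5 CPM in NSC, 138, 138 and 150.0 in Astrocyte, 87.0, 92.4 and 92.0 in Neuron, and 312 and 300.1 in Oligodendrocyte. Its pattern was that of G6pdx, with 1.71 (SE 0.07, adjusted p = 5.32e-11) in Oligodendrocyte and 0.61 (SE 0.06, adjusted p = 7.34e-07) in Astrocyte. Tkt (transketolase) read 429, 436 and 473 CPM in NSC, 436, 506 and 541 in Astrocyte, 281, 299.8 and 287 in Neuron, and 589 and 620.4 in Oligodendrocyte. Its Oligodendrocyte libraries were highest too, by 0.44 (SE 0.09, adjusted p = 0.000395), and its Neuron change was -0.62 (SE 0.08, adjusted p = 5.41e-06). Addition of T3 to the Neuron medium is the 1 stated difference between these groups, and it went with 1.78 (SE 0.07, adjusted p = 2.3e-10) for G6pdx, 2.13 (SE 0.08, adjusted p = 1.09e-10) for Pgd, 1.75 (SE 0.07, adjusted p = 3.12e-10) for Taldo1 and 1.06 (SE 0.09, adjusted p = 2.22e-07) for Tkt. Against Astrocyte, Oligodendrocyte was higher by 1.02 (SE 0.07, adjusted p = 6.97e-08), 1.50 (SE 0.08, adjusted p = 4.86e-09), 1.10 (SE 0.07, adjusted p = 4.12e-08) and 0.30 (SE 0.09, adjusted p = 0.0122) in the same order.

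**Figure D4:**
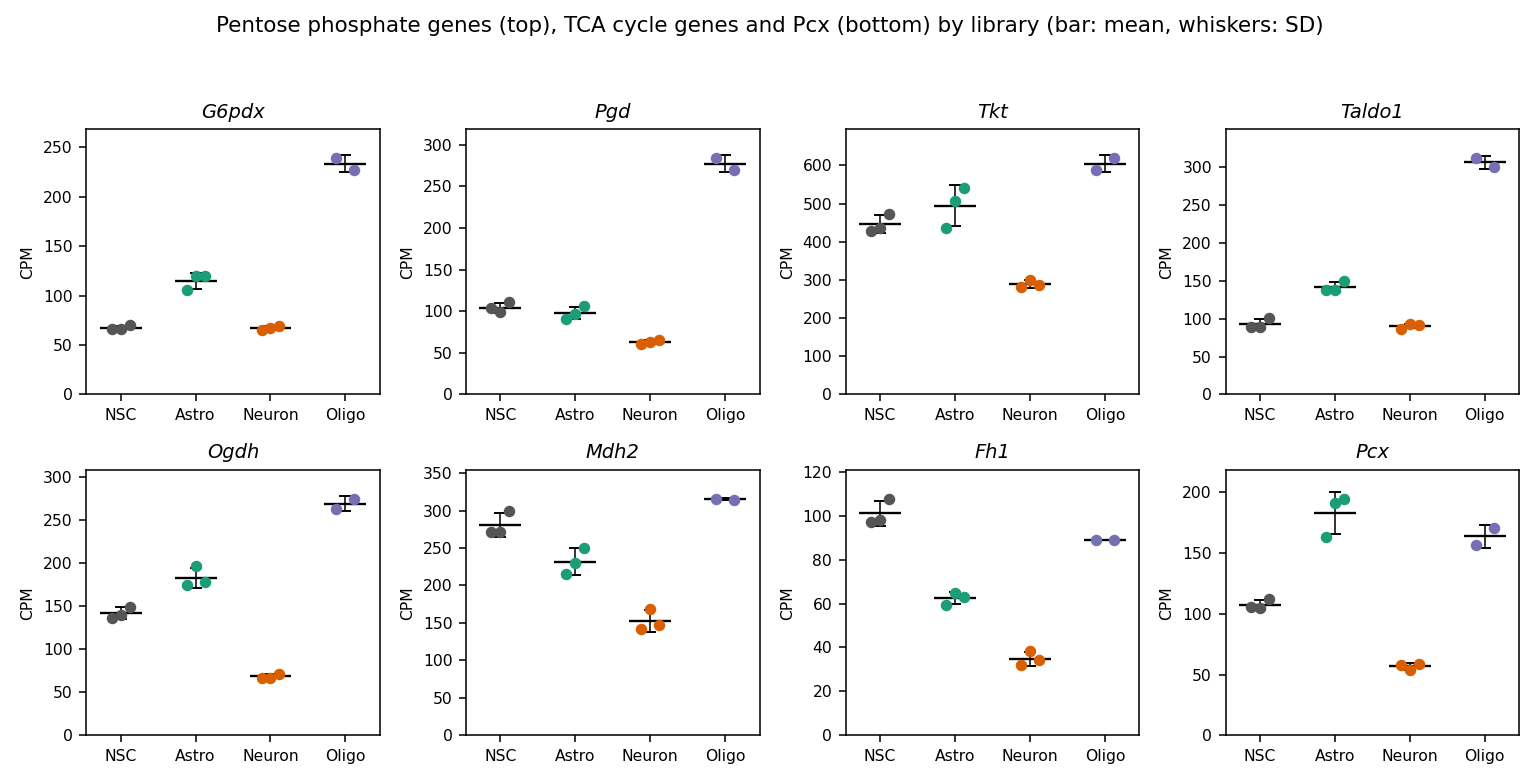
CPM in each library (y axis) of the 4 pentose phosphate genes (top) and of Ogdh, Mdh2, Fh1 and Pcx (bottom) by group (x axis), with the mean as a bar and the SD as whiskers. The Oligodendrocyte libraries lie above every other library in the top row, and the Neuron libraries lie lowest in the bottom row.

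Between the day 4 media, the Neuron medium was the low one for nearly the whole set. Astrocyte exceeded Neuron in 32 of 36 members and was below it in Aldoc and Pdk4, where 40.3% of all genes were higher and 22% lower. At least 2-fold higher were 6 members (background 6.39%), namely Hk2, Pfkp, Pfkfb3, Pgk1, Ogdh and Pcx, and none was lower by that much (background 2.95%). The members' median was 0.70 and that of all genes 0.10. Oligodendrocyte exceeded Neuron in 30 members and was below it in Aldoc and Pdk4 (background 43.9% and 23.6%). At least 2-fold higher were 18 members (background 8.96%), and Aldoc was the 1 lower by that much (background 3.58%). The median was 1.01 against 0.15 for all genes. In both comparisons 10 of 10 TCA genes with Pcx and 4 of 4 pentose phosphate genes were higher in the first group. Scaling by the median of ratios left 9 of those 10 in each comparison.

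Fewer members were called between Oligodendrocyte and Astrocyte. Oligodendrocyte was higher in 18 members and lower in 6 (background 28.7% and 23.5%), with a median of 0.24 against 0.04. At least 2-fold were 3 higher, all of the pentose phosphate pathway (background 4.53%), and 1 lower, Aldoc (background 3.41%). The split became 17 and 9 with median-of-ratios scaling and 16 and 10 with quantile normalization. The 6 members lower in Oligodendrocyte were Hk1, Pfkp, Pfkfb3, Aldoc, Eno2 and Idh2, by 0.21 to 1.51 on the log2 scale. The number of lower members rested on single libraries: it was 3 (with 14 higher) without Oligodendrocyte replicate 2, 4 (15 higher) without Oligodendrocyte replicate 1, 4 (17 higher) without Astrocyte replicate 2 and 9 (20 higher) without Neuron replicate 2. Hk1 lost its call without either Oligodendrocyte library (adjusted p = 0.0912 and 0.064) or Astrocyte replicate 2 (0.0717). Eno2 lost it without Oligodendrocyte replicate 2 (adjusted p = 0.153) or Astrocyte replicate 1 (0.0518), and Pfkfb3 without most single libraries (adjusted p up to 0.232). The 3 comparisons between media share libraries too, and no test of one against another was made.

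**Figure D5:**
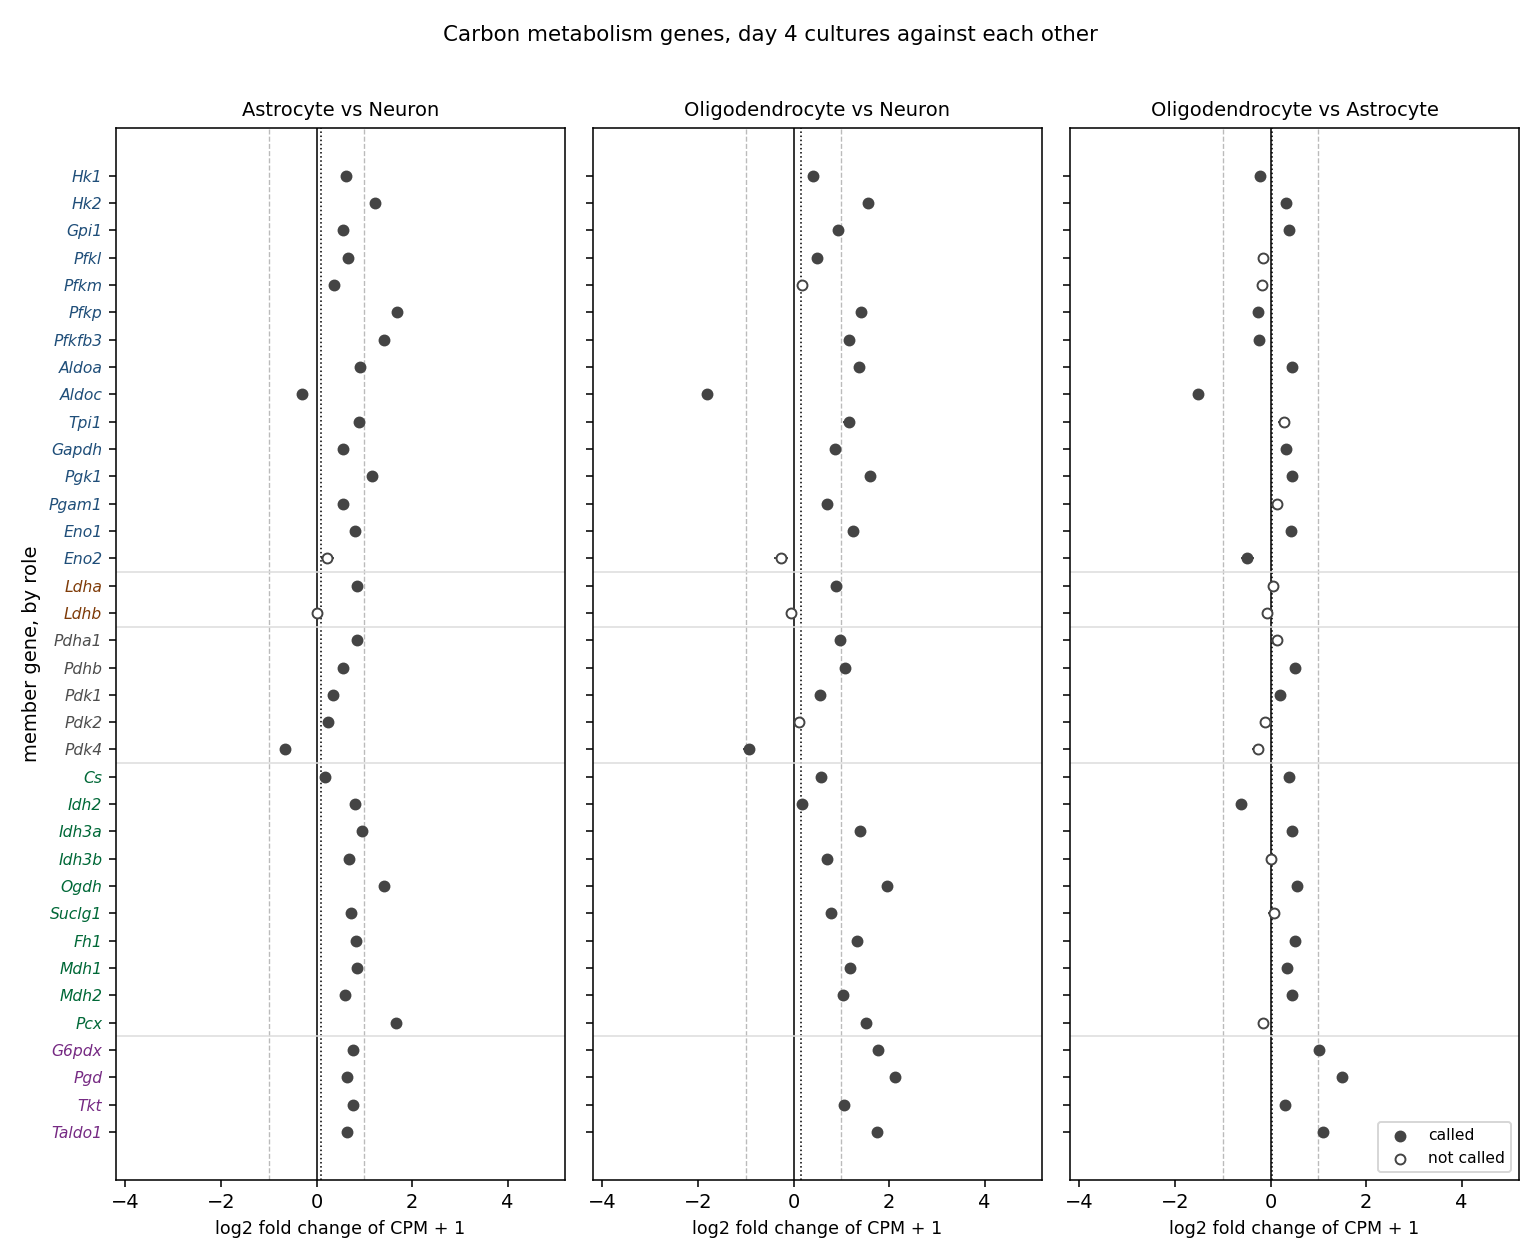
Log2 fold change of CPM + 1 (x axis) of each of the 36 genes (y axis, ordered and coloured by role) between day 4 media, drawn as in the plot against NSC. Nearly all genes lie right of 0 in the comparisons with Neuron, with Aldoc and Pdk4 to the left, and the pentose phosphate genes stand out to the right in the comparison of Oligodendrocyte with Astrocyte.

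Other genes of the same pathways, from lists chosen with earlier results of these data known, gave the following counts against NSC, where 48% of all genes tested rose and 35.6% fell in Astrocyte, 43.5% and 39.6% in Neuron, and 48.1% and 32.2% in Oligodendrocyte. Of 19 other genes of glycolysis, 10 were tested, and Pgk2 and Ldhc (testis forms) were listed at 0 in every library. Of these 10, 7 rose and 3 fell in Astrocyte, 6 rose and 4 fell in Neuron, and 7 rose and 3 fell in Oligodendrocyte. Of 15 other TCA-related genes, 2 rose and 13 fell in Neuron (median -0.63), 6 rose and 5 fell in Astrocyte and 9 rose and 3 fell in Oligodendrocyte. The ATP-citrate lyase gene Acly, which makes cytosolic acetyl-CoA for lipids, fell in every medium, by 1.29 (SE 0.09, adjusted p = 6.88e-09), 1.55 (SE 0.09, adjusted p = 1.02e-09) and 1.53 (SE 0.10, adjusted p = 4.64e-09) in Astrocyte, Neuron and Oligodendrocyte. Me3, a mitochondrial malic enzyme, rose by 1.71 (SE 0.10, adjusted p = 9.09e-10), 1.82 (SE 0.10, adjusted p = 5.23e-10) and 2.10 (SE 0.11, adjusted p = 4.47e-10) in the same order.

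The other pentose phosphate genes were mixed in direction. Of 8 tested, 3 rose and 4 fell in Oligodendrocyte against NSC, with a median of -0.14. Pgls, which acts between G6pdx and Pgd, fell there by 0.67 (SE 0.09, adjusted p = 1.62e-05). H6pd, the enzyme of the endoplasmic reticulum, rose by 1.23 (SE 0.12, adjusted p = 3.15e-07), and Shpk, a sedoheptulose kinase, by 1.30 (SE 0.13, adjusted p = 6.67e-07). Against Neuron, 6 of 8 were higher in Oligodendrocyte and none was lower, with a median of 0.53. Of all genes tested, 43.9% were higher and 23.6% lower in that comparison, with a median of 0.15.

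Of 12 tested genes of glycogen and glucose release, 10 rose and 2 fell in Astrocyte, 6 rose and 2 fell in Neuron, and 10 rose and 1 fell in Oligodendrocyte, and Pck1 of gluconeogenesis was listed at 0 in every library. Pygb, brain glycogen phosphorylase, read 59.4, 56.2 and 63.8 CPM in NSC, 1092, 1175 and 1181 in Astrocyte, 768, 819 and 843 in Neuron, and 757 and 743 in Oligodendrocyte. It was above NSC in every day 4 library, by 4.24 (SE 0.07, adjusted p = 5.48e-15) in Astrocyte, 3.74 (SE 0.07, adjusted p = 1.81e-14) in Neuron and 3.63 (SE 0.07, adjusted p = 1.1e-13) in Oligodendrocyte. Gbe1, the branching enzyme, read 9.89, 9.88 and 10.4 CPM in NSC, 33.8, 38.6 and 40.9 in Astrocyte, 16.1, 15.1 and 16.8 in Neuron, and 136 and 125 in Oligodendrocyte. It was highest in Oligodendrocyte, 2.95 (SE 0.09, adjusted p = 2.02e-11) above Neuron and 1.77 (SE 0.09, adjusted p = 3.47e-09) above Astrocyte. Pygl, the liver phosphorylase, was highest in Neuron at 11.3 to 12.5 CPM, against 1.57 to 1.89 CPM in NSC.

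Genes induced by hypoxia did not move 1 way. Of 11 tested, 6 rose and 4 fell in Astrocyte, 7 rose and 3 fell in Neuron and 5 rose and 3 fell in Oligodendrocyte. Bnip3, a mitophagy receptor, rose by 2.05 (SE 0.08, adjusted p = 1.22e-11), 2.27 (SE 0.08, adjusted p = 4.95e-12) and 2.33 (SE 0.09, adjusted p = 1.48e-11) in Astrocyte, Neuron and Oligodendrocyte, whereas Adm, adrenomedullin, fell by 0.91 (SE 0.10, adjusted p = 2.25e-06), 2.90 (SE 0.10, adjusted p = 1.08e-11) and 1.15 (SE 0.12, adjusted p = 7.18e-07). Ndrg1 rose in Astrocyte and Neuron, at 12.6 to 15.8 and 17.8 to 31.6 CPM, and was at 0.640 to 0.680 in NSC and 0.810 to 1.03 in Oligodendrocyte. Of 12 regulators tested, 8 rose in each medium, and 3, 3 and 2 fell in Astrocyte, Neuron and Oligodendrocyte. Txnip, which lowers glucose uptake, rose from 7.41 to 9.57 CPM in NSC to 92.2 to 102 in Astrocyte, 143 to 174 in Neuron and 112 to 117 in Oligodendrocyte. Epas1 (HIF-2 alpha) rose by 3.99 (SE 0.12, adjusted p = 9.26e-13), 3.40 (SE 0.12, adjusted p = 5.32e-12) and 4.34 (SE 0.13, adjusted p = 2.03e-12), and Foxo1 by 1.87 (SE 0.07, adjusted p = 1.35e-11), 1.18 (SE 0.07, adjusted p = 2.04e-09) and 2.23 (SE 0.08, adjusted p = 1.11e-11), in Astrocyte, Neuron and Oligodendrocyte. Hif1a and Myc were picked after their values were seen. Hif1a fell by 0.31 (SE 0.06, adjusted p = 0.000351), 0.20 (SE 0.06, adjusted p = 0.00727) and 0.43 (SE 0.07, adjusted p = 6.43e-05), and Myc by 1.80 (SE 0.10, adjusted p = 5.68e-10), 0.74 (SE 0.10, adjusted p = 7.02e-06) and 2.16 (SE 0.11, adjusted p = 3.77e-10), in the same order. The part of the cell cycle genes or of these regulators in the members' changes was not tested.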

How the data were processed

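RNA abundance was deposited as CPM per gene and library, with the authors' group means and standard deviations, which serve here only as a check of the signal spread: the deposited means and SDs differed from recomputed ones by at most 0.0067 and 0.0118 CPM. The submitters' processing notes name bcl2fastq 1.8.4, TopHat2 2.0.8, HTSeq 0.6.1, edgeR 3.2.4, R 3.0.0, HOMER and the mouse build NCBIM37 (mm9), with no roles. Whether normalization factors entered the CPM is not given in the sources used here. Whole reads were not recovered from the CPM, and no count test was run.

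Of 37991 genes, 13342 reached 1 CPM or more in 2 or more libraries and were tested. A model with the 4 groups was fitted to log2(CPM + 1) in limma 3.58.1 (R 4.3.3; moderated test with an intensity trend, 7 residual and 5.96 prior degrees of freedom), and p-values were adjusted over all genes (Benjamini-Hochberg, threshold 0.05). Fold changes are on that scale and understate low genes. The scripts were tested on simulated data. Ratios and shares used numpy 2.4.6, pandas 2.3.3 and scipy 1.17.1, and exon lengths of GENCODE M21 on GRCm38. Figures used matplotlib 3.10.9. Gene positions are those of the deposited table; promoters are from RefSeq on GRCm38.p6, and the builds were not mixed.

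Members and lists were chosen with earlier results of these data known. All 36 members are named, with every library's value for those changed at least 2-fold in any of 6 comparisons. From each pathway list at most the 3 genes with the largest called change are named, plus Pkm, Slc2a1, Slc2a3, Slc16a1 and Slc16a3, and genes at 0. Pdk3, Pdp2, Hif1a and Myc were added after their values were seen. Alternatives were other pseudocounts, filters and scalings, a replicate block, robust estimation, fits of the compared groups alone, and leaving out each library. Isoenzyme ratios without a pseudocount were added after seeing the data.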

Additional observations from a re-analysis of the deposited data

Results flagged for a closer look

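Some members were called in opposite directions against NSC in the Neuron medium and in another medium, with the difference between the media also called by limma. There were 5 such members for Astrocyte and Neuron and 10 for Oligodendrocyte and Neuron, each lower in Neuron than in NSC and higher in the other medium. Over all 13342 genes tested, 343 (2.57%) met the same rule in that direction for Astrocyte and 570 (4.27%) for Oligodendrocyte. Between Astrocyte and Neuron the log2 difference was 0.91 for Aldoa, 0.69 for Idh3b, 1.41 for Ogdh, 0.72 for Suclg1 and 1.67 for Pcx. Between Oligodendrocyte and Neuron it was 1.36 for Aldoa, 0.88 for Gapdh, 1.08 for Pdhb, 0.69 for Idh3b, 1.96 for Ogdh, 0.78 for Suclg1, 1.19 for Mdh1, 1.51 for Pcx, 2.13 for Pgd and 1.06 for Tkt. Adjusted p-values of these differences lay between 1.09e-10 for Pgd and 3.57e-05 for Suclg1, both between Oligodendrocyte and Neuron. The rise against NSC of Suclg1 in both media, and of Gapdh, Mdh1 and Tkt in Oligodendrocyte, was not called with median-of-ratios scaling. Suclg1 in both media was also lost without the filter, and without NSC replicate 1 or 2, as was Mdh1 in Oligodendrocyte without either of these 2 libraries. The fall of Idh3b in Neuron was lost after quantile normalization (adjusted p = 0.137) and without NSC replicate 3 (0.0604) or Neuron replicate 1 (0.0573). The counts of 5 and 10 thus depend on such settings. Groups of 2 or 3 libraries are too small to single out a deviating library. Leaving out Neuron replicate 2 had the largest effect on calls between Oligodendrocyte and Astrocyte, where it is not compared. Genes called there went from 6966 to 8022, against at most 7097 without any other single library. Members at least 2-fold between Astrocyte and Neuron went from 6 to 9 without it. The cause was not tested.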

How the results depend on the processing

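Under the alternatives run, counts of members called stayed within 1.5 times the main count: 26 to 33 for Astrocyte against NSC (main 27), 32 to 33 for Neuron (33), 26 to 33 for Oligodendrocyte (30), 32 to 34 for Astrocyte against Neuron (34), 31 to 34 for Oligodendrocyte against Neuron (32) and 17 to 29 for Oligodendrocyte against Astrocyte (24). Of 180 member calls 21 were lost under at least 1 alternative, none of them among the 72 with a 2-fold change, and no called member value changed sign. Of 36 member values not called, 25 were called under at least 1 alternative, and 3 of these with the other sign: with median-of-ratios scaling Pdhb in Astrocyte (-0.16, adjusted p = 0.037) and Pdha1 (-0.181, adjusted p = 0.0232) and Idh3a (-0.206, adjusted p = 0.0182) in Oligodendrocyte were lower than in NSC. Among the other pathway genes named, except Pdk3 and Pdp2, which were not included in this check, 2 changed sign after quantile normalization. They were H6pd in Neuron against NSC (-0.065, adjusted p = 0.533) and Pygl in Oligodendrocyte against NSC (-0.054, adjusted p = 0.704). The cause was not tested.

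With the replicate number as a block, 27, 33, 30, 34, 33 and 23 members were called in the same order of comparisons, and Fh1 in Oligodendrocyte against NSC (adjusted p = 0.0649) and Pfkfb3 and Pdk1 in Oligodendrocyte against Astrocyte (0.0801 and 0.0504) were lost. Deviations of same-numbered libraries correlated at -0.505 to 0.415 (15 pairs, median 0.035). For libraries of different number the range was -0.536 to 0.541 (30 pairs, median -0.007). With 2 or 3 libraries per group, deviations from the group mean depend on each other. These values therefore cannot show whether same-numbered libraries were paired. Oligodendrocyte rests on 2 libraries, and without one of them the other is assumed to vary like the other groups.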
